A study of Mus musculus with 2 samples.

Results

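The 5 genes described here, Lrp2, Cubn, Aqp1, Pck1 and Gatm, serve the absorptive and metabolic work of the proximal tubule, and the regions bound by ELF3 and NFKB2 around them were examined. A region counted as a member when it overlapped a window of the gene with about 20 kb on each side, in the deposited coordinates. The windows held 33 of 68319 ELF3 regions and 6 of 14217 NFKB2 regions. The data were 2 CUT&RUN libraries, 1 per antibody, made from tubular epithelial cells that were isolated from kidneys of wild type mice and cultured, both stimulated with TNFα and IFNγ and both labelled batch 1. In CUT&RUN an antibody tethers a nuclease to a bound protein and the DNA released around it is sequenced. Unstimulated cells are not among the samples, so no value here is an effect of the cytokines. The labels give neither the dose nor the length of the stimulation, nor the age or number of the mice. The lists hold no expression values, so the labelled cell type was not checked against markers.

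The proximal tubule recovers most of the filtered water, sugar, amino acids and protein, and it is also a metabolic organ. Megalin (Lrp2) and cubilin (Cubn) are the large endocytic receptors that take filtered proteins and vitamin carriers back from the brush border. Aqp1 is the water channel of the proximal tubule and thin descending limb. Pck1 (phosphoenolpyruvate carboxykinase) catalyses the committed step of gluconeogenesis, and Gatm (glycine amidinotransferase) the first step of creatine synthesis. ELF3 is an epithelial ETS factor, a family that recognises a GGAA core, and NFKB2 is the p100 precursor of p52 in the non-canonical NF-κB pathway.

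ELF3 regions were listed at all 5 loci, with 22 at Cubn, 3 at Lrp2, 3 at Aqp1, 3 at Gatm and 2 at Pck1. NFKB2 regions were listed at 2 loci, 5 at Cubn and 1 at Lrp2, and none at Aqp1, Pck1 or Gatm. Every one of these 6 NFKB2 regions overlapped an ELF3 region. Cubn carried 66.7% of the ELF3 regions on 41.4% of the window length. With 1 library per antibody no difference has a replicate check, and the intervals given for fragments cover counting error only.

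These counts were read against consecutive windows of the same length laid over the autosomes and the X chromosome. Such windows include stretches without genes, so they are a rough background. Of 202 kb windows, the length used for Lrp2, 81.4% held an ELF3 region and 42.3% an NFKB2 region. Of 256 kb windows, the length used for Cubn, the shares were 84.2% and 47.1%. At 57 kb, the length for Aqp1 and for Gatm, they were 57.9% and 20.5%, and at 46 kb, the length for Pck1, 53.2% and 17.6%. A window with an ELF3 region was therefore common at each length, and most windows of the Aqp1, Gatm and Pck1 lengths lacked NFKB2, so neither result is particular to these genes.

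The count at Cubn was high for its length. A window of 256 kb held a median of 5 ELF3 regions, and 22 or more were found in 251 of 10004 windows (2.51%). For NFKB2, 5 or more regions were found in 947 of them (9.47%). Lrp2 was below the middle of the background, since 62.4% of windows of its length held at least 3 ELF3 regions and the median was 4. This turned with a flank of 50 kb, where Lrp2 held 9 ELF3 regions and windows of that length a median of 6. At least 3 regions were found in 24.0% of windows of the Aqp1 and Gatm length, and at least 2 in 31.8% of those of the Pck1 length. Lrp2 and Cubn, whose proteins act together in a receptor complex, had 14.9 and 85.9 ELF3 regions per Mb, below and above the 26.6 of the autosomes and X. With a flank of 50 kb the values were 34.4 and 82.3, both above it.

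**Figure D1:**
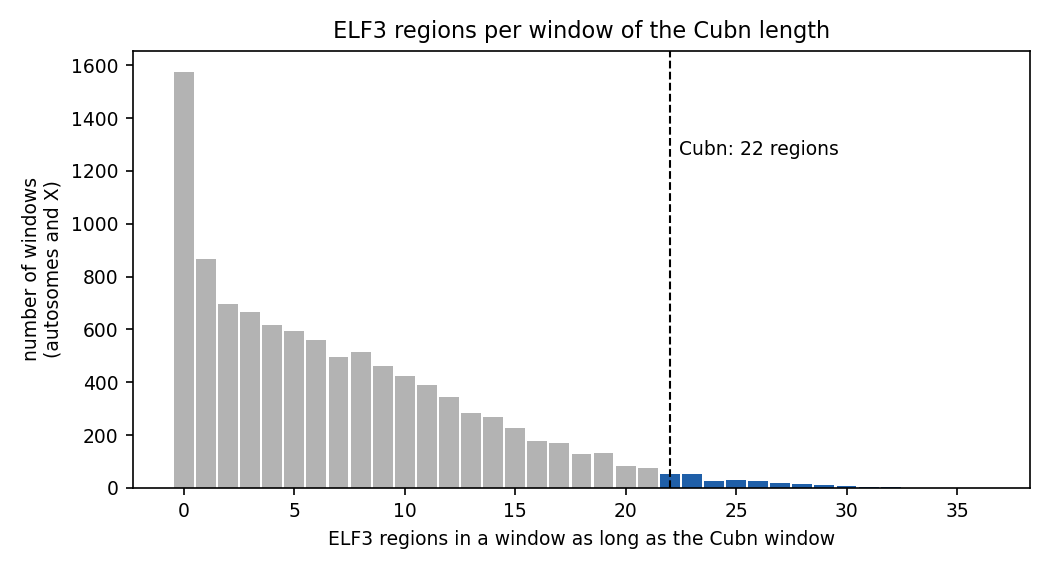
Number of 256 kb windows on the autosomes and X (vertical axis) by the number of ELF3 regions they hold (horizontal axis). The dashed line marks Cubn with 22 regions, and the blue bars are the 251 windows with 22 or more.

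Over the 5 windows together ELF3 had 53.4 regions per Mb and covered 3.20% of the bases, against 26.6 per Mb and 1.83% over the autosomes and X. Without the Cubn window the values were 30.4 per Mb and 1.07%. For NFKB2 they were 9.71 per Mb and 0.496%, against 5.53 per Mb and 0.282% over the autosomes and X, and 2.76 per Mb and 0.0724% without Cubn. Pooled, the loci outside Cubn were thus close to the average in number for ELF3, and below it in covered bases for both factors. Singly they differed from it, with 14.9 ELF3 regions per Mb at Lrp2, 43.5 at Pck1 and 52.6 at Aqp1 and at Gatm. These values rest on 2 or 3 regions each and depend on the window length. With a flank of 50 kb they were 34.4 at Lrp2, 28.3 at Pck1, 34.2 at Aqp1 and 25.6 at Gatm. Gatm was above the average in covered bases for ELF3, with 2.37%, or 1352 bp. Its regions of 166 and 170 bp lay wholly in the window. The rest came from a region of 1494 bp that crossed the window edge and had its summit outside, so the value depends on that region.

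The start of each gene was taken as the window end less 20 kb, on the side given by the strand in a RefSeq table. It is known to about 1 kb, except at Aqp1. There the implied length of 17 kb and the RefSeq length of 12.3 kb differ, so distances from its start are less certain. ELF3 lay at a gene start in 1 of the 5 genes, Pck1. The share of all gene starts with an ELF3 region was not computed, so this count has no background. At Pck1 the region chr2:172994423-172994829 had its summit 0.318 kb upstream of the implied start, with 19 fragments (95% interval 11.4 to 29.7). That distance is less than the rounding. The summit nearest to the start was 5.49 kb away at Cubn, 11.6 kb at Aqp1, 17.7 kb at Gatm and 34.7 kb at Lrp2. Over all 33 regions 25 had their summit inside the gene, 5 upstream and 3 downstream. The genes make up 418 of the 618 kb of the windows, so no preference for the gene can be read from these counts.

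The bases before the start of Pck1 are shown because ELF3 lay there, and those of Cubn because its start held no region although its locus held most. Both are the 250 bases upstream of the start from the RefSeq promoter table of GRCm38.p6, a different build from that of the regions, so a summit cannot be placed on a base. Capitals mark GGAA on either strand, which reads TTCC on the opposite one.
Pck1 (GRCm38.p6 chr2:173152823-173153072, plus strand): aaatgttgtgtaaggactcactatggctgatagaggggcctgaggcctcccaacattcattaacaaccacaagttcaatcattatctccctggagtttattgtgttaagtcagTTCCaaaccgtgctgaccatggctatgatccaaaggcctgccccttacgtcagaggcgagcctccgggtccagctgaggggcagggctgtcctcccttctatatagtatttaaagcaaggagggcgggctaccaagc
Cubn (GRCm38.p6 chr2:13491877-13492126, minus strand): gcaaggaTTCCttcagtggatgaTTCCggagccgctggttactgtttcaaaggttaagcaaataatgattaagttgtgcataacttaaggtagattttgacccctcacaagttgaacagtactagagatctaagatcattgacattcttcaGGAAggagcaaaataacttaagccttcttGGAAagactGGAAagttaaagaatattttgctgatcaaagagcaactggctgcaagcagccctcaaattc

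The Pck1 stretch held 1 GGAA and the Cubn stretch 5, and those of Lrp2, Gatm and Aqp1 held 2, 3 and 5. Pck1, the only start with an ELF3 region, had the fewest copies, but 1 start cannot show a relation. Its position is known only to about 1 kb, so the region may lie outside the bases counted. The core is frequent, as 93.4% of the 32851 promoter stretches of this length hold it on either strand. The longer AGGAAG, which contains the core, was found once at Cubn and once at Aqp1 and in 29.5% of all promoters, and CGGAAG in none of the 5 and in 13.6% of all. The NF-κB consensus was in none of the 5 and in 7.25% of all promoters. These are matches of letters, not binding sites.

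**Figure D2:**
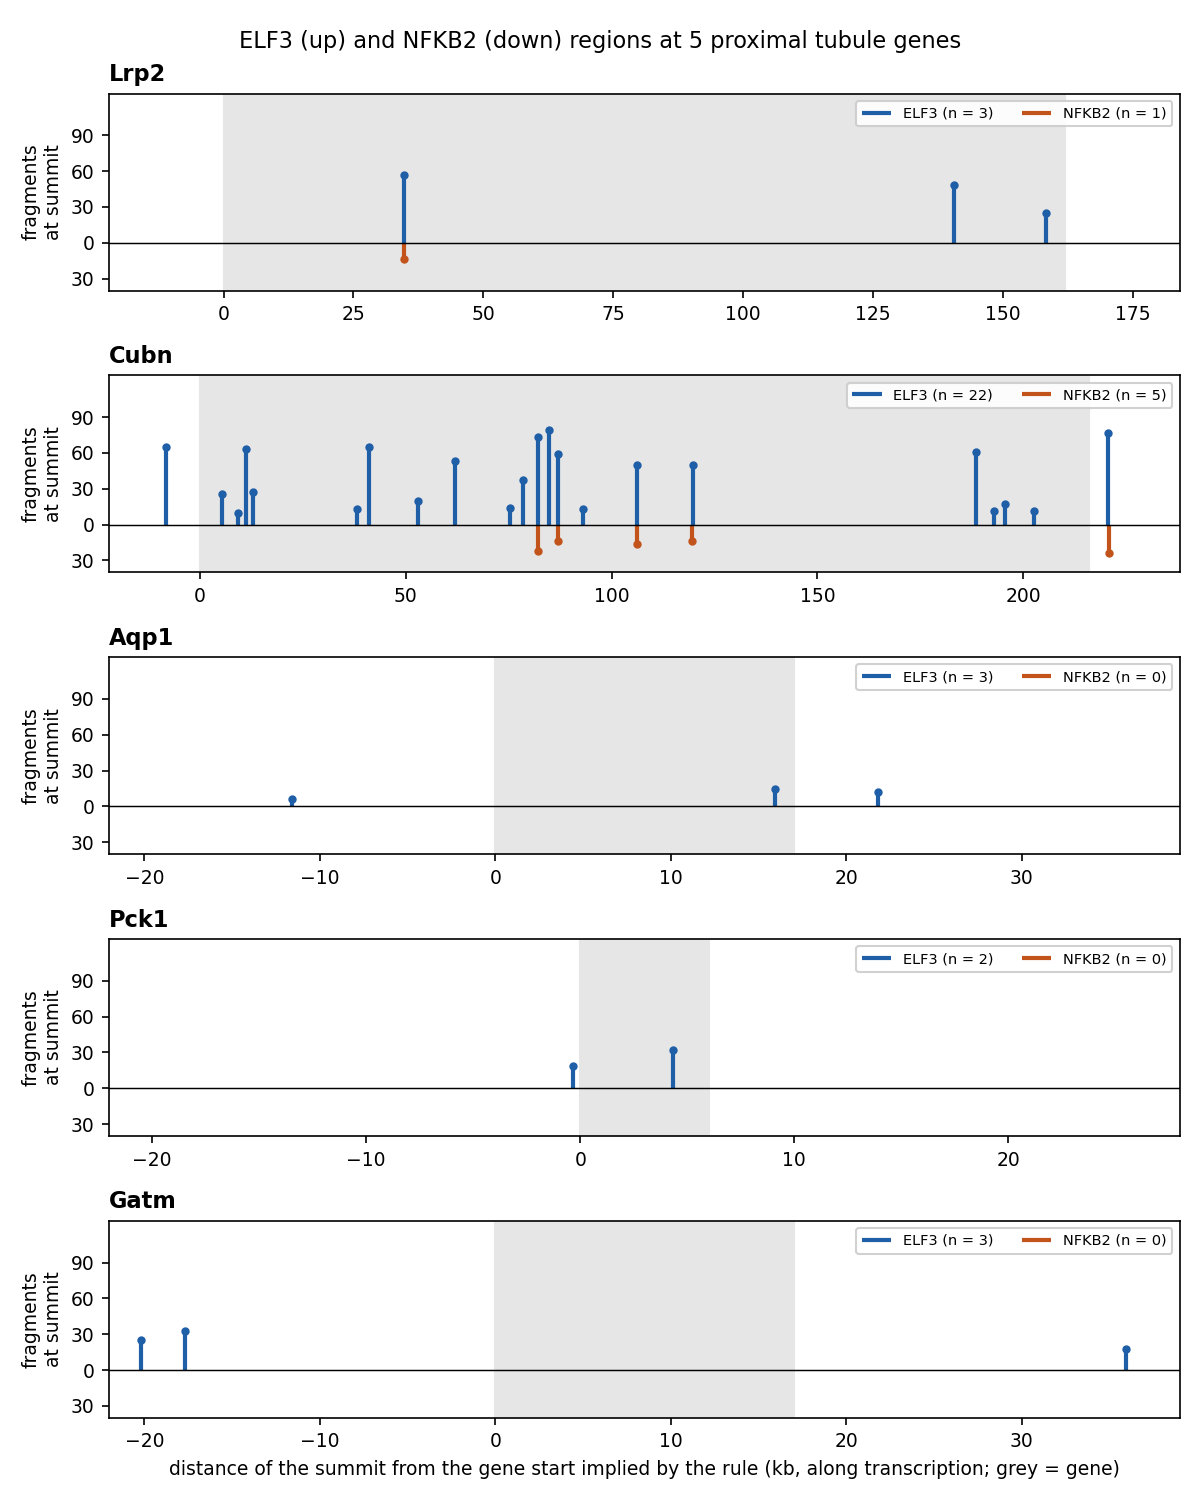
Fragments at the summit (vertical axis, ELF3 upward in blue and NFKB2 downward in orange) against the distance of the summit from the implied gene start in kb along transcription, with the gene in grey, 1 panel per gene. The Cubn window holds 22 ELF3 regions, of which 20 have their summit inside the gene, while the Gatm gene holds none. The gene takes up 216 of 256 kb at Cubn and 17 of 57 kb at Gatm.

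Signal is given as fragments at the summit, recovered from the scores of the list. Over the whole ELF3 list the median was 22 fragments (quartiles 14 and 36), and over the NFKB2 list 16 (13 and 22). The lowest local background, taken here as the average coverage of the genome, was 1.22 fragments for ELF3 and 1.36 for NFKB2, a ratio of 1.11. The depth of the libraries is not given in the lists, so this scaling is an assumption of the caller's model. At the 5 loci 20 of 33 ELF3 regions were above the list median, 14 of 22 at Cubn and 6 of 11 at the other genes. The local background was at its lowest level in 22 of the 33 ELF3 regions and reached at most 2.43 times that level.

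Among the receptors, Cubn had the region of most fragments, 79 against 57 at Lrp2, but the intervals of these overlap. The 3 ELF3 regions of Lrp2 had a median of 48 fragments, with a range of 25 to 57. The 22 of Cubn had a median of 43.5, with a range of 10 to 79, and 11 of them reached 50 or more. In the whole list 13.5% of the regions did. The other 11 Cubn regions comprised 4 of 20 to 37 fragments and 7 of 10 to 17. Widths ranged from 184 to 2226 bp with a median of 457 bp, against 418 bp in the whole list, and 6 of the 22 exceeded 1000 bp (27.3%), beside 20.9% of the list.

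Along Cubn the regions are numbered from the lowest coordinate, which is the end of the gene. The region of highest −log10 q was the first, chr2:13275903-13276505, with 77 fragments (60.8 to 96.2) and a rank of 2121 in the ELF3 list. Its summit lay 4.66 kb beyond the implied end of Cubn and 220.7 kb from the implied start. In the RefSeq table of GRCm38.p6 the starts of Rsu1 and of the lncRNA Gm13270 lie 4.92 and 4.76 kb beyond the end of Cubn. Rsu1 encodes a Ras suppressor protein of integrin adhesions. The builds differ, so the region was not assigned to Rsu1 or Gm13270, but it is outside Cubn and near that distance.

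Within the gene 6 regions, numbers 8 to 13, lay between 13403834 and 13421919, and covered 24.0% of these 18086 bp. Regions 9, 10 and 11 in its middle were the strong ones. Region 9 (chr2:13409878-13410888) had 59 fragments (44.9 to 76.1). Region 10 (chr2:13412078-13413418) had 79 (62.5 to 98.5), the most of any at the 5 loci. Region 11 (chr2:13414546-13415836) had 73 (57.2 to 91.8). These 3 were 1189 and 1127 bp apart, close to the smallest gap in the list, 1001 bp, and their counts do not differ beyond the counting intervals. Region 12 had 37 fragments, and regions 8 and 13 at the edges had 13 and 14.

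The 2 widest ELF3 regions of the 5 loci also lay inside Cubn. Region 6 (chr2:13376360-13378585) was 2226 bp wide with 50 fragments, and region 16 (chr2:13454823-13457000) was 2178 bp wide with 65. Of the list, 96.3% and 96.1% were narrower. Between regions 5 and 6 there was a gap of 67812 bp with no ELF3 region, so Cubn was not covered evenly. Regions 2 to 5, toward the end of the gene, had 11, 17, 11 and 61 fragments with summits 188.6 to 202.7 kb from the implied start, and only region 5 (chr2:13308193-13308547) among them was above the list median. In the RefSeq table of GRCm38.p6 the lncRNA Gm13270 runs opposite to Cubn from 220.3 to 182.6 kb from the Cubn start, so both genes are annotated at such distances. Regions 7, 14, 15 and 17 had 50, 53, 20 and 13 fragments.

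Toward the start, regions 18 to 21 had their summits 12.8, 11.2, 9.23 and 5.49 kb inside the gene. They had 27, 63, 10 and 26 fragments, so that region 19 (chr2:13485645-13485945) was the strong one. Region 22 (chr2:13505135-13505428), 8.27 kb upstream of the implied start, had 65 (50.2 to 82.8). The RefSeq table of GRCm38.p6 places the nearest gene on that side, Trdmt1, 13002 bp from Cubn and on the same strand.

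**Figure D3:**
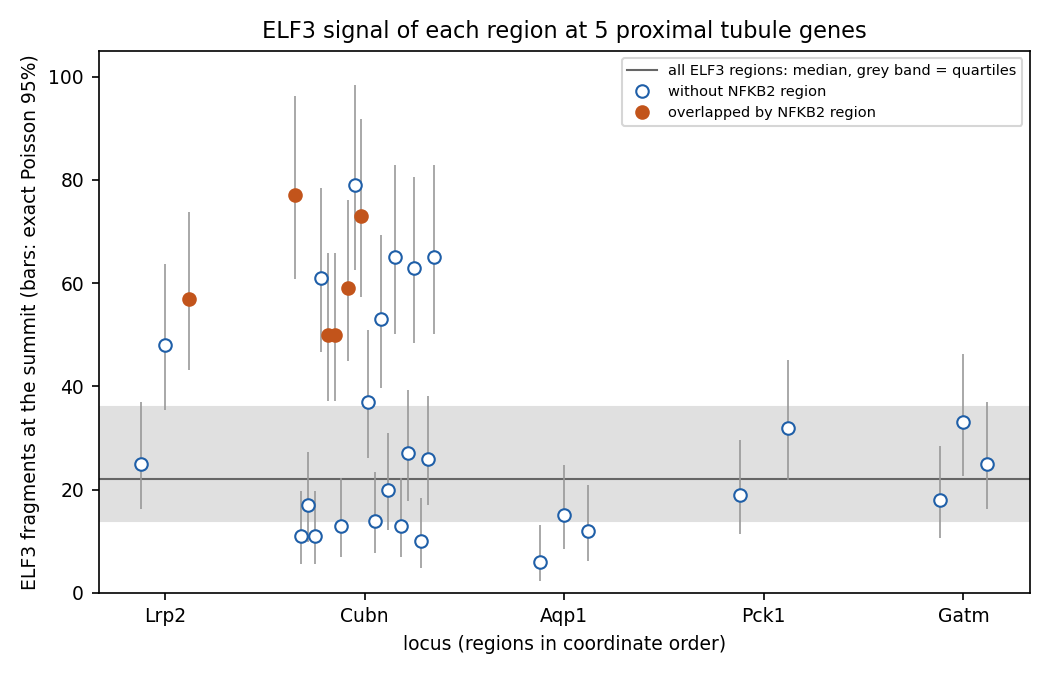
Fragments at the summit of each ELF3 region (vertical axis, bars are exact Poisson 95% intervals) by locus in order of coordinate, with the median and quartiles of all ELF3 regions in grey. The 6 filled points overlap an NFKB2 region, and each has 50 fragments or more, while the 3 Aqp1 regions lie at 6 to 15. The limit of 50 was chosen after the values were seen.

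Lrp2 had 3 ELF3 regions, all inside the gene. The strongest, chr2:69381974-69382395, had 57 fragments (43.2 to 73.9) and a summit 34.7 kb from the implied start. The second, chr2:69276309-69276699, had 48 (35.4 to 63.6), and the third, chr2:69258550-69258750, had 25 (16.2 to 36.9) at 3.66 kb before the implied end of the gene. A stretch of 105274 bp between the first and second of these held no region. Just outside the window a region of 73 fragments lay 3.08 kb below its lower end and 1 of 9 fragments 5.88 kb above its upper end.

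At the Aqp1 locus the ELF3 signal was weak. The region 11.6 kb upstream, chr6:55301385-55301922, had 6 fragments (interval 2.2 to 13.1), the fewest of any listed at the lowest background. The region chr6:55328819-55329038 had 15 (8.40 to 24.7), and chr6:55334731-55334897 had 12 (6.20 to 21.0). The first ranked 67351 of 68319 by −log10 q, which was 1.53. All 3 were below the list median of 22 fragments, although the interval of the second includes it. The rule gives Aqp1 a length of 17 kb and the RefSeq table of GRCm38.p6 12.3 kb. The distance of 11.6 kb, and whether the second lies inside the gene, therefore depend on the annotation. For the other 4 genes the lengths differed by less than 1 kb.

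At the genes of the metabolic enzymes the signal was moderate. Pck1 had, besides the region at its start, chr2:172999251-172999440 inside the gene with 32 fragments (21.9 to 45.2). The intervals of both Pck1 regions overlap. Gatm had no region inside the gene. Downstream, chr2:122405982-122406147 had 18 fragments (10.7 to 28.4), with a summit 18.9 kb beyond the implied end. Upstream, chr2:122459607-122459776 had 33 (22.7 to 46.3) and chr2:122460985-122462478 had 25 (16.2 to 36.9).

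The last Gatm region was 1494 bp wide, the only 1 of the 11 regions at the 4 genes other than Cubn over 1000 bp, and crossed the edge of the window, with its summit 20.2 kb upstream of the implied start. In the RefSeq table of GRCm38.p6 Spata5l1, an AAA ATPase gene on the opposite strand, starts 19.3 kb upstream of Gatm. As at Cubn, the region was not assigned to that gene, since the builds differ. No other ELF3 region was within 32.1 kb above or 106.4 kb below the Gatm window.

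NFKB2 was found at 6 of the 33 ELF3 regions (18.2%), near the 19.7% of all ELF3 regions. The 5 at Cubn lay on its regions 1, 6, 7, 9 and 11, and that at Lrp2 on its strongest region. All 6 were among the 12 ELF3 regions of 50 or more fragments at the 5 loci, whereas the 21 weaker regions had none. The limit of 50 was chosen after the values were seen. Cubn regions 6 and 7, which had NFKB2, lie exactly at it. An Lrp2 region of 48 fragments, which had none, lies just below, so the clean split depends on where the limit was set. In the whole list NFKB2 was present at 59.1% of ELF3 regions of 50 or more fragments, 22.4% of those of 20 to 49 and 4.91% of those under 20. The 6 of 12 found here are thus near what ELF3 regions of that strength showed elsewhere, and 0 of the 9 of 20 to 49 fragments is a small number to set beside 22.4%. In the opposite direction, 6 of 6 NFKB2 regions lay on ELF3, beside 96.8% of the NFKB2 list.

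Strength did not separate Cubn regions with NFKB2 from strong ones without. The 5 with NFKB2 had 77, 50, 50, 59 and 73 ELF3 fragments. The 6 without had 61, 79, 53, 65, 63 and 65, at regions 5, 10, 14, 16, 19 and 22, so the ranges overlap. Region 10, with the most ELF3 fragments, lay between regions 9 and 11 and had no NFKB2 region, while both neighbours did. Of the 6 Cubn regions over 1000 bp 4 had NFKB2. All 6 also had 50 or more fragments, and of such ELF3 regions in the whole list 59.1% had NFKB2. The share of all ELF3 regions over 1000 bp with NFKB2 was not computed. No link with width can therefore be read here.

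NFKB2 had fewer fragments than ELF3 in every shared region. At Cubn region 1 it had 24 fragments (15.4 to 35.7) in chr2:13276120-13276432, and at region 11 it had 22 (13.8 to 33.3) in chr2:13414667-13415743. It had 14 at region 6, 16 at region 7 and 14 at region 9. At Lrp2 it had 14 (7.65 to 23.5) in chr2:69382060-69382321. These 6 counts, with a median of 15, lie around the NFKB2 list median of 16, and their intervals overlap. That of region 1 exceeded 79.4% of the NFKB2 list and that of region 11 74.1%. The strongest NFKB2 region of the 5 loci was thus the one outside the Cubn gene.

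**Figure D4:**
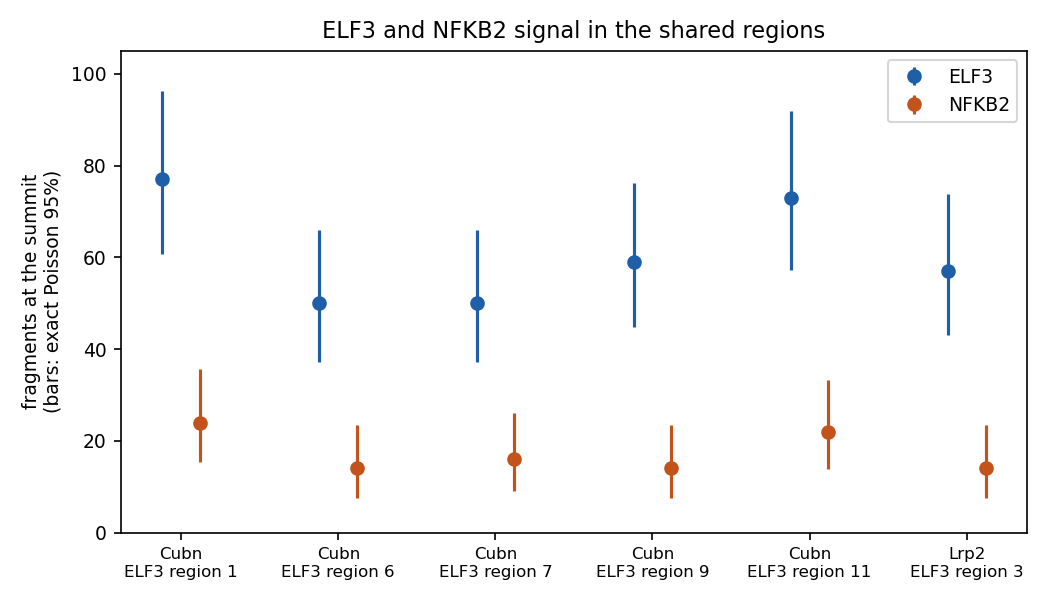
Fragments at the summit (vertical axis, bars are exact Poisson 95% intervals) of ELF3 in blue and NFKB2 in orange in the 6 shared regions. NFKB2 lies at 14 to 24 and ELF3 at 50 to 77, with no overlap of the intervals within a pair.

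Divided by this coverage of each library, NFKB2 was 0.281 of ELF3 at Cubn region 1 (exact binomial interval 0.170 to 0.449), 0.252 at region 6, 0.288 at region 7, 0.214 at region 9 and 0.272 at region 11. At Lrp2 it was 0.221 (0.114 to 0.402). The ratios ranged from 0.214 to 0.288, or from 0.237 to 0.320 without that division. Their median of 0.262 was close to the median of 0.254 (quartiles 0.192 and 0.339) of the 5673 pairs in the whole lists whose ELF3 region had 50 or more fragments, as all 6 had. Over all 13769 shared NFKB2 regions, weak ELF3 regions included, the median was 0.365. The intervals of the 6 ratios overlap. Only listed NFKB2 regions enter, so weaker NFKB2 signal is left out here and in the whole list.

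Summits of both factors were close at Lrp2 (16 bp) and at Cubn regions 9 (26 bp) and 1 (46 bp). They were 104 bp apart at region 11, 149 bp at region 7 and 269 bp at region 6, the widest. Over all shared NFKB2 regions the median distance was 41 bp (quartiles 16 and 98). In 5 of the 6 pairs the NFKB2 region lay wholly within the ELF3 region. NFKB2 regions are narrower in general, with a median width of 329 bp over the list against 418 bp for ELF3. The share over all shared regions was not computed, so this is not shown to be a trait of these loci.

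The absence of NFKB2 regions at Aqp1, Pck1 and Gatm has a limit of detection. The fewest fragments of any NFKB2 region at the lowest background were 8, so weaker signal is not listed. The ELF3 regions of these genes had 6 to 33 fragments. The nearest NFKB2 regions were 112.2 kb below and 1342 kb above the Aqp1 window, 113.0 kb below and 78.5 kb above that of Pck1, and 205.3 kb below and 2144 kb above that of Gatm.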

How the data were processed

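Peak lists of 2 CUT&RUN libraries were used, grouped by the antibody in the labels. The submitters' processing notes name MACS2 as the caller. The aligner, the control and the caller's version and settings were not given in the sources used here; an IgG list was not analysed here. The deposited columns hold a score (10 times −log10 q), the fold (a ratio of summit signal to local background), −log10 p and −log10 q. The notes name mm10, but the files use sequence names of GRCm39, as do the windows. No annotation of that build was used, so a wider list of proximal tubule genes was not run. Members and lists were chosen with earlier results of these data known.

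Fold and −log10 p together give whole fragments and a local background under the caller's Poisson model, found within 0.01 (scaled up over 100) for all 39 regions at the loci and all but 1 ELF3 and 11 NFKB2 regions elsewhere. NFKB2 fragments had been scaled by 0.964. The most frequent, lowest background was taken as average coverage, and ratios of the factors were divided by the ratio of these, 1.11. Read totals of the libraries are not in the lists. Regions that shared 1 bp or more overlapped. Python 3.11.15, numpy 2.4.6, scipy 1.17.1 and pandas 2.3.3 were used, and recovery, overlaps and window counts were tested on simulated data. Regions are not replicates, so no test was made. Every member was named or counted, and other genes were named only as neighbours. The limits of 20 and 50 fragments and of 1000 bp were chosen after the values were seen. Alternatives were summits inside the window, the gene without flanks, a 50 kb flank, −log10 q of 5 and 10 or more, stricter overlaps and shifted windows.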

Additional observations from a re-analysis of the deposited data

How the results depend on the processing

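Of 72 counts and densities under alternative settings 54 stayed within 1.5 times the reported value, and of 20 shares of windows 10 stayed within their exact binomial interval. The shares that stayed were those of shifted windows, and those that moved were at −log10 q of 10 or more, which can only lower them. Aqp1 and Gatm have the same window length, so the same shares were counted for each. The 54 include the NFKB2 counts at Aqp1, Pck1 and Gatm, which were 0 under every setting. Settings that only remove regions could not change a count of 0, so those cases show no stability. All 6 NFKB2 over ELF3 ratios stayed within their exact binomial intervals without division by the coverage ratio, an alternative chosen after the data were seen. It multiplies each ratio by the same 1.11, which is small beside those intervals. The 6 were therefore bound to stay inside, and this does not test the scaling. Leaving out the Cubn window, an alternative chosen after the data were seen, lowered ELF3 to 30.4 regions per Mb and 1.07% of bases and NFKB2 to 2.76 per Mb and 0.0724%. With the gene alone the ELF3 regions numbered 1 at Aqp1, 1 at Pck1 (the region at the start ends before the rounded gene start) and 0 at Gatm. With a flank of 50 kb Lrp2 had 9 ELF3 and 2 NFKB2 regions, and its ELF3 density moved above the average, to 34.4 per Mb. At −log10 q of 5 or more Aqp1 kept 1 ELF3 region and Lrp2 had 0 NFKB2 regions. At 10 or more ELF3 had 14 regions at Cubn and 0 at Aqp1, and NFKB2 had 0 at Lrp2 and 2 at Cubn, which were its 2 regions at the 5 loci. The ELF3 regions with NFKB2 numbered 3 with summits within 100 bp and 2 at −log10 q of 10 or more. At that limit 75.4% of 202 kb windows, 79.1% of 256 kb windows, 48.3% of 57 kb windows and 43.6% of 46 kb windows held an ELF3 region, and 23.9%, 27.9%, 9.41% and 7.86% an NFKB2 region; fewer regions pass by construction. No paired analysis was possible because each antibody has 1 library. Regions under the listing limit are not in the lists, so a missing region is not absence of binding.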
